A study of Mus musculus with 21 samples.

Results

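The 9 genes described here encode a small cytokine circuit of macrophages: interleukin-6 (*Il6*), interleukin-10 (*Il10*), tumour necrosis factor (*Tnf*) and oncostatin M (*Osm*), the IL-10 receptor chains *Il10ra* and *Il10rb*, the TNF receptors *Tnfrsf1a* and *Tnfrsf1b*, and the IL-17 receptor chain *Il17ra*. They were taken by symbol, as 9 of the 34236 gene names in the count table, with no threshold on their values. RNA was sequenced from macrophages sorted from kidneys of male C57BL/6J mice aged 24 weeks, in 21 libraries. Mice had either a cuff placed around the right renal artery (renal artery stenosis, RAS) or the artery exposed without a cuff (Sham). All groups were of this 1 strain, kidneys were perfused and enzyme-digested, the labels give a flow sort of 5 h, and cells with T, B, NK, erythroid or granulocyte surface markers were gated out. F4/80+CD64+ cells were then split by CD11b and CD11c into CD11chi macrophages (both high, 3 Sham and 4 RAS libraries), CD11clo macrophages (CD11b high, CD11c low to negative, 3 Sham and 4 RAS) and kidney-resident macrophages (KRM, both intermediate, 4 Sham and 3 RAS). The study's purpose in profiling them was to set resident cells against monocyte-derived cells in the normal and the ischaemic kidney.

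IL-6 and oncostatin M signal through the shared receptor chain gp130, together with the IL-6 receptor or with the oncostatin M or LIF receptor, and activate STAT3. IL-10 binds a pair of chains, the specific IL-10RA and the shared IL-10RB, also activates STAT3, and restrains inflammatory transcription in macrophages. TNF is made as a membrane protein, displayed on the cell surface and shed. It acts through TNFR1, which is broadly expressed and can lead to cell death, and through TNFR2, which is enriched on immune cells. IL-17RA is the common chain for cytokines of the IL-17 family, which are made mostly by T cells and innate lymphocytes. *Il6*, *Il10*, *Tnf* and *Osm* are rapidly induced genes with short-lived transcripts, and handling of tissue can itself induce such genes.

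On GRCm38 the cytokine genes lie at chr5:30013114-30019981 (*Il6*), chr1:131019845-131024974 (*Il10*), chr17:35199381-35202007 (*Tnf*) and chr11:4236420-4241026 (*Osm*). The receptor genes lie at chr9:45253837-45269149 (*Il10ra*), chr16:91406164-91425834 (*Il10rb*), chr6:125349362-125362484 (*Tnfrsf1a*), chr4:145213463-145246870 (*Tnfrsf1b*) and chr6:120463247-120487559 (*Il17ra*). Counts are per gene. The promoters of the cytokine genes *Il6* and *Tnf* are shown because their transcripts, both rapidly inducible, differed in pattern: in Sham kidneys the libraries of the 3 populations did not overlap for *Il6* and did for *Tnf*. Promoter sequences were taken from the RefSeq table on GRCm38.p6, which held entries for 4 of the 9 genes (*Il6*, *Tnf*, *Tnfrsf1a* and *Tnfrsf1b*). The 250 bases before the annotated start of each are given 5′ to 3′ on the strand of the gene, with capitals marking a match to 1 of 5 short motifs. The motifs were chosen after the sequences had been read.

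Il6 (chr5:30012864-30013113, plus strand): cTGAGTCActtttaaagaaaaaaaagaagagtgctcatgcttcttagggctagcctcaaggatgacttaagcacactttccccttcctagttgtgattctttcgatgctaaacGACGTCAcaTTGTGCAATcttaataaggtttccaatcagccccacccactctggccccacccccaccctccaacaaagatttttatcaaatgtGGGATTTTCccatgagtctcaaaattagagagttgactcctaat
Tnf (chr17:35202008-35202257, minus strand): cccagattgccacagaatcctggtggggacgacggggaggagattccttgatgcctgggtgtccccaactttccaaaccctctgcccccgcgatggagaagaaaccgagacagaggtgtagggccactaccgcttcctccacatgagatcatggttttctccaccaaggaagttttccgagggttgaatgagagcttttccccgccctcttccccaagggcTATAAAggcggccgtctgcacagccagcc

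The *Il6* stretch held the NF-kB motif GGGANTTTC at 44 to 36 bases before the start, the C/EBP motif TTGNGCAAT at 128 to 120, the CRE motif GACGTCA at 137 to 131 and the AP-1 motif TGANTCA at 249 to 243. The *Tnf* stretch held only the TATA motif TATAAA, at 29 to 24 bases before the start. Both strands were searched, and the matches do not overlap each other. Among 32851 RefSeq promoters of the same length, GGGANTTTC was found in 0.941%, TTGNGCAAT in 0.539%, GACGTCA in 2.78%, TGANTCA in 6.75% and TATAAA in 12.4%. The stretches before *Tnfrsf1a* and *Tnfrsf1b* held none of the 5 motifs. A match describes letters only, and a motif that was not found says nothing of the factor.

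Library totals ran from 6891142 to 18592381 estimated counts, at which 3 counts, the most that a count of 0 allows, corresponded to 0.15 to 0.476 CPM (counts scaled to the total of the library). Levels are given as CPM after scaling by the trimmed mean of M-values (TMM), and such limits cover counting error only, since amplified reads without molecular identifiers are not separate molecules. Macrophage markers (9 of 10 listed were found) summed to 2150 to 11300 CPM, and replicates differed by more than counting error in every pair. The size varied: the mean chi-square over genes was 5.14 between CD11chi RAS replicates 3 and 4, against 94.8 to 129 for other pairs of that group. It was 10.1 between KRM RAS replicates 2 and 3, against 107 and 136, and 7.25 between KRM Sham replicates 2 and 4. Whether such close pairs are separate samples is not stated. The replicate 3 Sham library of each population stood apart, with proximal tubule markers summing to 18500 CPM in CD11chi, 5740 in CD11clo and 2570 in KRM, against at most 1510 in any other library. Among RAS libraries of KRM, replicate 1 differed from replicates 2 and 3: its distal nephron markers summed to 105 CPM against 4040 and 3000, and its T and NK cell markers to 395 against 45 and 43.4. For the 9 genes, calls and the differences printed for *Il10* that rest on these libraries are given with and without them. In sorted bulk RNA, fewer cells that express a gene and less of its RNA per cell cannot be told apart, and nothing in the labels says whether replicates are separate animals, so p-values measure only the spread between these libraries.

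*Il6* was nearly silent in resident macrophages of Sham kidneys and was detected in every other group. In KRM Sham it measured 0.12, 0.847, 0.0997 and 0.837 CPM, which is 1 to 8 counts a library. CD11chi Sham libraries held 10.8, 8.6 and 9.92 CPM, and CD11clo Sham libraries 19, 25.7 and 21.3 CPM. The 3 Sham populations did not overlap, with KRM lowest and CD11clo highest. In RAS kidneys *Il6* measured 1.18, 14.7 and 17.8 CPM in KRM, 7.87, 29.2, 41.7 and 45 CPM in CD11chi, and 16.4, 58.1, 29.7 and 71.2 CPM in CD11clo. All RAS libraries of KRM were above all of its Sham libraries, but replicate 1 by little, while in CD11chi and CD11clo replicate 1 of RAS fell below the Sham range and the other 3 libraries lay above it.

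*Il10*, the anti-inflammatory member, was the other transcript close to absent in KRM Sham, at 0.842, 0.741, 0.349 and 0.418 CPM (4 to 7 counts a library). KRM RAS libraries held 0.884, 12.2 and 14.2 CPM, so that replicate 1 lay just above the Sham range and replicates 2 and 3 far above it. Among the monocyte-derived populations the spread within a group exceeded the difference between treatments. CD11chi held 1.4, 1.27 and 7.91 CPM in Sham and 1.87, 9.04, 4.73 and 3.4 CPM in RAS, and CD11clo held 2.9, 3.94 and 34.9 CPM in Sham and 3.71, 13.7, 36.2 and 14.6 CPM in RAS. In both populations the highest Sham value was that of replicate 3, the library with many proximal tubule transcripts, and the Sham and RAS ranges overlapped.

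*Osm*, which encodes an IL-6 family cytokine made by activated macrophages and neutrophils, was graded across populations. Sham values were 27.2, 25.1, 20.3 and 27.4 CPM in KRM, 78.1, 103 and 36.8 CPM in CD11chi, and 567, 531 and 306 CPM in CD11clo. No 2 populations overlapped in Sham kidneys. RAS values were 54.9, 92.4 and 129 CPM in KRM, 99.4, 96.2, 245 and 250 CPM in CD11chi, and 494, 670, 408 and 664 CPM in CD11clo. Every RAS library of KRM exceeded every Sham library of KRM, whereas in CD11chi and CD11clo the Sham and RAS ranges overlapped.

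*Tnf* was abundant in every population and separated none of them. It measured 142, 129, 70.6 and 244 CPM in KRM Sham, 322, 71.4 and 73 CPM in CD11chi Sham, and 23.9, 222 and 151 CPM in CD11clo Sham. In RAS it measured 53, 109 and 134 CPM in KRM, 49.9, 144, 107 and 121 CPM in CD11chi, and 28.6, 92.8, 198 and 147 CPM in CD11clo. Replicates of 1 group spanned a wider range than the group means, which lay between 99 ± 41.7 CPM (SD, n = 3, KRM RAS) and 156 ± 144 CPM (SD, n = 3, CD11chi Sham), and any pair of groups overlapped. Genes induced by tissue dissociation (14 of 14 found) summed to 32000 to 49400 CPM in KRM Sham, 24000 to 27400 CPM in KRM RAS and 16100 to 41800 CPM elsewhere, and their part in the *Tnf* levels was not tested.

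**Figure D1:**
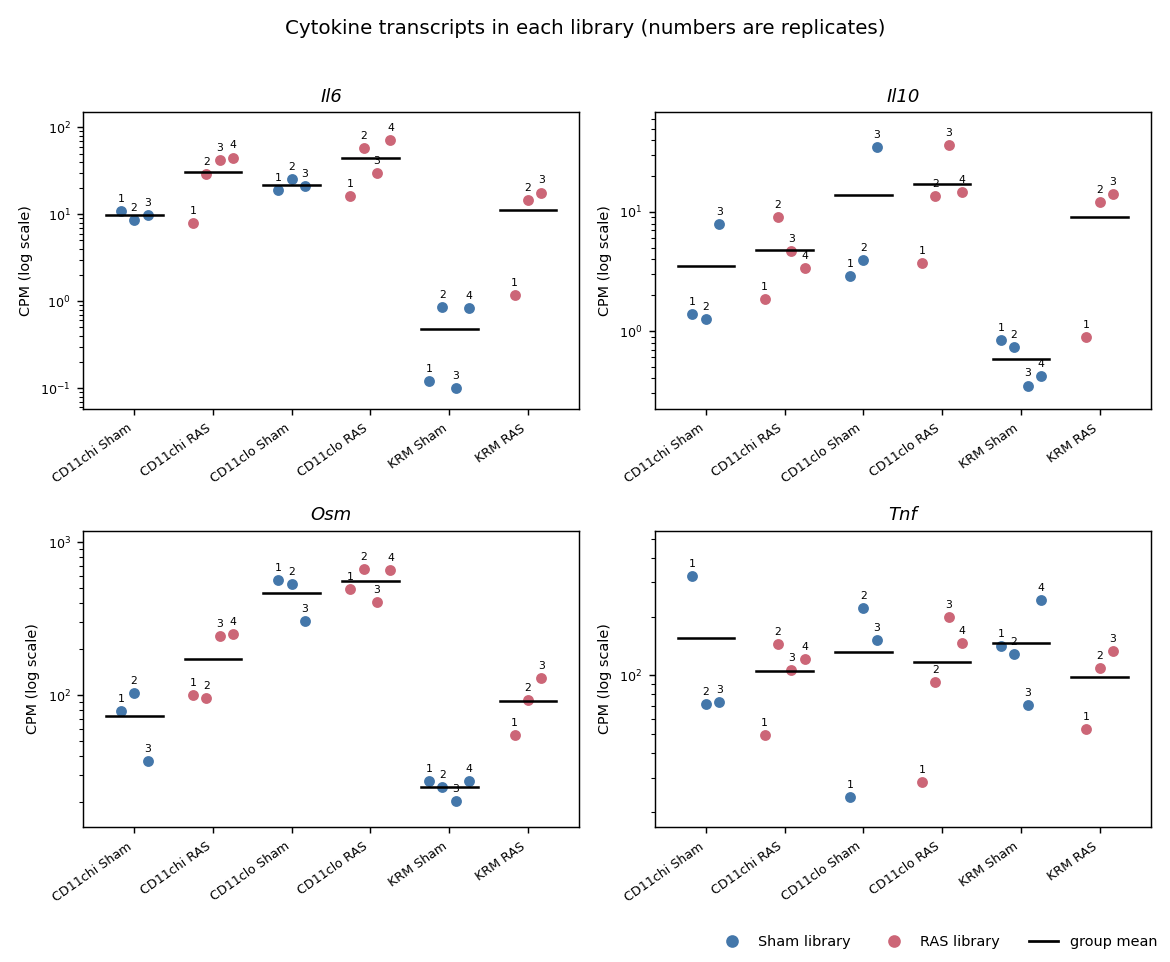
Level of *Il6*, *Il10*, *Tnf* and *Osm* (CPM, log scale) in each of the 21 libraries, by population and treatment, with points for libraries and a bar at each group mean. *Il6* and *Il10* lie below 1 CPM in the 4 KRM Sham libraries, *Osm* is highest in CD11clo, and *Tnf* overlaps between all groups.

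The IL-10 receptor was highest in resident macrophages of Sham kidneys, the group in which its ligand was lowest. *Il10ra*, the ligand-binding chain, measured 990, 1020, 908 and 1130 CPM in KRM Sham, 644, 758 and 215 CPM in CD11chi Sham, and 408, 394 and 380 CPM in CD11clo Sham, so that KRM did not overlap with either population. In RAS it measured 844, 349 and 470 CPM in KRM, 645, 259, 404 and 406 CPM in CD11chi, and 529, 424, 680 and 514 CPM in CD11clo. The 3 populations overlapped in RAS kidneys, where KRM lay below its Sham range in all 3 libraries and CD11clo above its Sham range in all 4.

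*Il10rb*, the chain shared with receptors for IL-22 and type III interferons, followed the same order in Sham kidneys. KRM Sham held 585, 518, 453 and 492 CPM, CD11chi Sham 215, 333 and 128 CPM, and CD11clo Sham 141, 129 and 111 CPM, with KRM above all others. In RAS the values were 413, 199 and 238 CPM in KRM, 250, 104, 115 and 114 CPM in CD11chi, and 163, 164, 398 and 261 CPM in CD11clo. KRM RAS lay wholly below KRM Sham, and CD11clo RAS wholly above CD11clo Sham.

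The TNF receptors were highest in CD11clo. *Tnfrsf1a*, which encodes TNFR1, measured 188, 166, 156 and 150 CPM in KRM Sham, 181, 185 and 69.2 CPM in CD11chi Sham, and 336, 261 and 268 CPM in CD11clo Sham. RAS libraries held 143, 110 and 112 CPM in KRM, 178, 151, 202 and 200 CPM in CD11chi, and 309, 483, 300 and 522 CPM in CD11clo. CD11clo did not overlap with the other populations under either treatment, and all 3 RAS libraries of KRM lay below its 4 Sham libraries.

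*Tnfrsf1b*, which encodes TNFR2, measured 429, 432, 398 and 424 CPM in KRM Sham, 630, 570 and 91.5 CPM in CD11chi Sham, and 952, 826 and 834 CPM in CD11clo Sham. RAS libraries held 412, 213 and 257 CPM in KRM, 663, 240, 385 and 398 CPM in CD11chi, and 1140, 904, 639 and 1080 CPM in CD11clo. CD11clo lay above both other populations in Sham kidneys, and above KRM but not CD11chi in RAS kidneys, where 1 CD11chi library (663 CPM) passed the lowest CD11clo library (639 CPM).

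*Il17ra* separated KRM from both other populations under either treatment. Sham libraries held 13.7, 14.5, 16.4 and 20 CPM in KRM, 296, 200 and 48.4 CPM in CD11chi, and 607, 601 and 577 CPM in CD11clo, with no overlap between populations. In RAS the values were 64, 39.6 and 39 CPM in KRM, 276, 108, 169 and 162 CPM in CD11chi, and 771, 531, 198 and 506 CPM in CD11clo. KRM stayed below every other library of RAS kidneys, all 3 of its RAS libraries exceeded its 4 Sham libraries, and the CD11chi and CD11clo ranges overlapped in RAS.

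**Figure D2:**
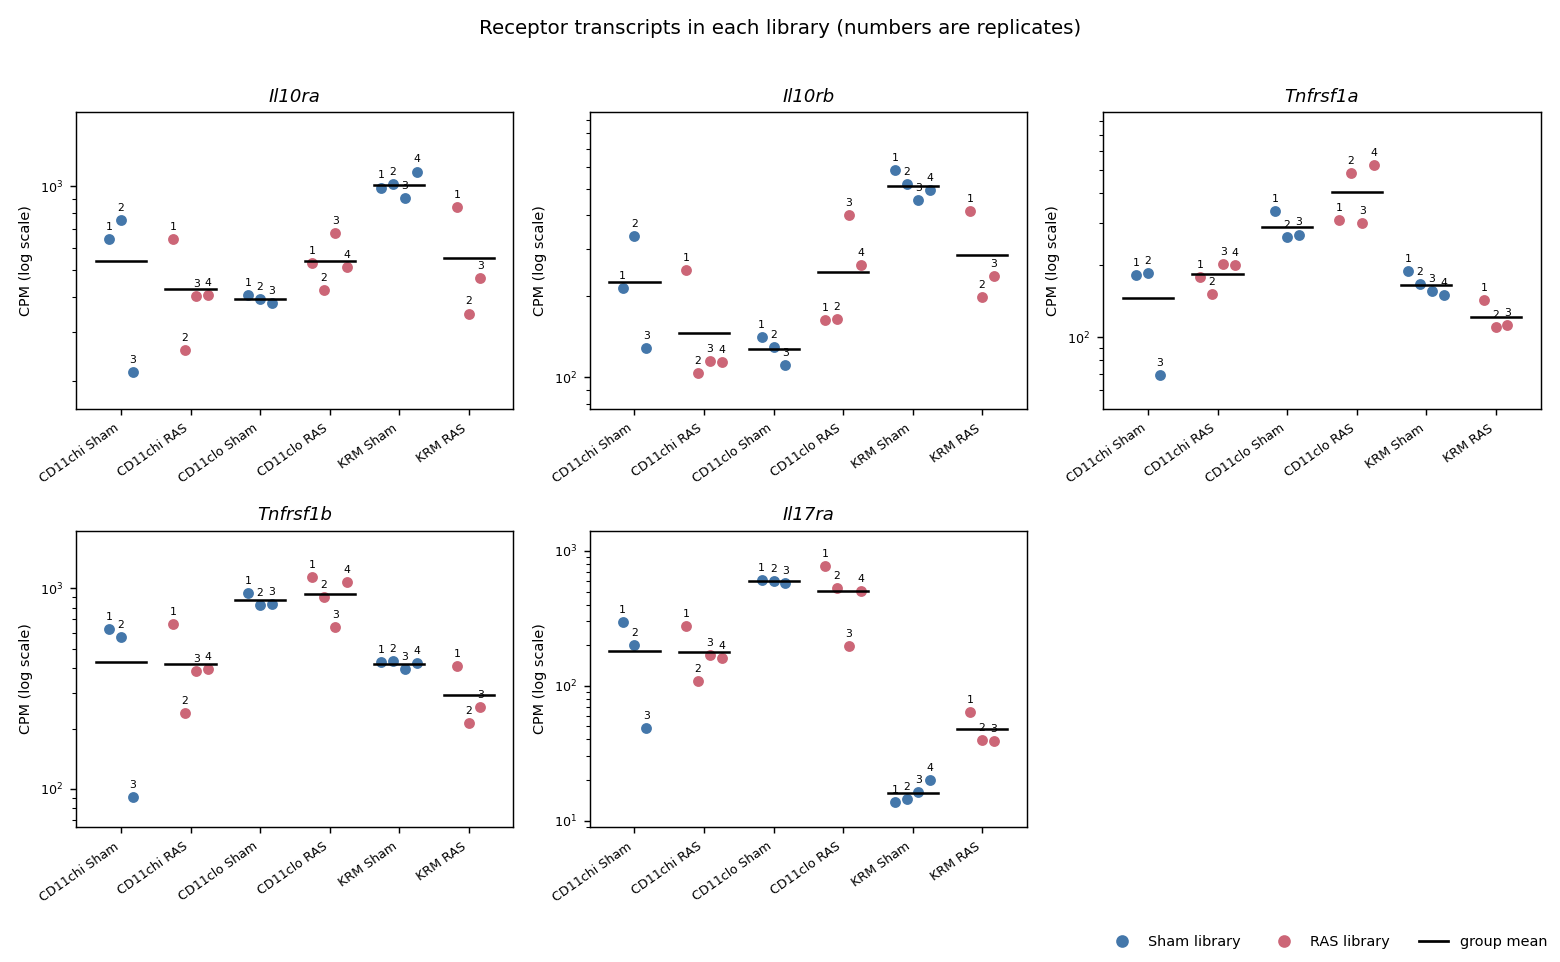
Level of *Il10ra*, *Il10rb*, *Tnfrsf1a*, *Tnfrsf1b* and *Il17ra* (CPM, log scale) in each library, by population and treatment, with points for libraries and a bar at each group mean. In Sham kidneys *Il10ra* and *Il10rb* are highest in KRM, the TNF receptors are highest in CD11clo, and *Il17ra* lies at 13.7 to 20 CPM in KRM against 577 to 607 CPM in CD11clo.

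To compare levels between genes, CPM was divided by the exon length of each gene in kilobases (CPM per kb). In KRM Sham the order was led by *Il10ra* at 289 ± 26.6 CPM per kb (SD, n = 4), followed by *Il10rb* at 134 ± 14.5, *Tnfrsf1b* at 110 ± 4.06, *Tnf* at 89.3 ± 43.9, *Tnfrsf1a* at 63.7 ± 6.39 and *Osm* at 11 ± 1.44, with *Il17ra*, *Il10* and *Il6* at 1.86 ± 0.322, 0.449 ± 0.184 and 0.196 ± 0.174. *Tnf* overlapped with its neighbours within 1 SD there. In CD11clo Sham the order began with *Tnfrsf1b* at 228 ± 18.4 CPM per kb (SD, n = 3) and *Osm* at 206 ± 62.2, which did not differ beyond their spread, and then *Il10ra* at 113 ± 4.03 and *Tnfrsf1a* at 111 ± 16, which did not either. *Tnf* (80.7 ± 61.2), *Il17ra* (68.7 ± 1.83), *Il10rb* (33.3 ± 3.87), *Il10* (10.6 ± 13.9) and *Il6* (9.07 ± 1.4) followed. The value of *Il10* rested on replicate 3 (34.9 CPM against 2.9 and 3.94), so that the order of these last genes was undecided. In CD11chi Sham the SD of *Il10ra* (154 ± 81.8 CPM per kb), *Tnfrsf1b* (113 ± 77.3) and *Tnf* (94.9 ± 88.1, n = 3 each) left their order undecided, also against *Il10rb* at 59.2 ± 27.1 and *Tnfrsf1a* at 56.1 ± 25.4. Lower means were those of *Osm* at 32 ± 14.7, *Il17ra* at 21 ± 14.4, *Il6* at 4.02 ± 0.455 and *Il10* at 2.69 ± 2.9.

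In KRM of RAS kidneys *Il10ra* again led on this scale, at 158 ± 73.8 CPM per kb (SD, n = 3), and *Tnfrsf1b* (77 ± 27.4), *Il10rb* (74.4 ± 29.9), *Tnf* (60.4 ± 25.4), *Tnfrsf1a* (47 ± 7.04) and *Osm* (40.6 ± 16.4) followed without any neighbours differing beyond their spread, ahead of *Il10* (6.95 ± 5.48), *Il17ra* (5.49 ± 1.65) and *Il6* (4.61 ± 3.63). CD11clo RAS was led by *Tnfrsf1b* and *Osm*, at 246 ± 58.6 and 246 ± 57 CPM per kb (SD, n = 4), and CD11chi RAS by *Il10ra* and *Tnfrsf1b*, at 122 ± 45.6 and 110 ± 46.1. The lowest transcripts were again *Il6* and *Il10*, at 18.1 ± 10.4 and 13 ± 10.4 CPM per kb in CD11clo RAS and 12.7 ± 6.94 and 3.63 ± 2.35 in CD11chi RAS.

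The first comparison asked how resident macrophages differ from CD11clo macrophages in the normal kidney. Of the 9 genes 8 differed, 6 lower and 2 higher in KRM, and only *Tnf* was not called. *Il17ra* was 36.8-fold lower by the group means (log2 fold change -5.22, SE 0.16, adjusted p = 8.38e-07), *Il6* 46.3-fold lower (log2 fold change -5.61, SE 0.653, adjusted p = 0.000299) and *Osm* 18.7-fold lower (log2 fold change -4.26, SE 0.246, adjusted p = 7.98e-06). *Il10* was lower as well, at a log2 fold change of -4.57 (SE 0.923, adjusted p = 0.00493), a size that rested on CD11clo Sham replicate 3 and shrank to -2.38 (adjusted p = 0.00627) without the replicate 3 Sham libraries, with adjusted p from 0.00334 to 0.0311 over the 13 alternatives that gave a value. Both TNF receptors were lower, *Tnfrsf1b* 2.07-fold (log2 fold change -1.07, SE 0.111, adjusted p = 0.000164) and *Tnfrsf1a* 1.75-fold (-0.83, SE 0.139, adjusted p = 0.00207). The IL-10 receptor chains were higher, *Il10rb* 4.03-fold (log2 fold change 1.99, SE 0.148, adjusted p = 2.87e-05) and *Il10ra* 2.57-fold (1.34, SE 0.12, adjusted p = 7.62e-05). In the edgeR quasi-likelihood test 41.9% of 12365 genes were called in this comparison (19.5% higher and 22.4% lower), and the groups did not overlap for 48.9% of all genes and for 8 of the 9. The same count, 8, was reached when any 1 library was left out. It was 7 in 1 fit over all 6 groups, where *Tnfrsf1b* had an adjusted p of 0.0939 (23.8% of all genes called), and 7 with DESeq2 (45.5%), which gave no p-value for *Il10*. Neutrophil markers (8 of 8 found) summed to 983 to 2550 CPM in CD11clo Sham, against 92.5 to 119 in KRM Sham, and classical monocyte markers (6 of 7 found) to 3620 to 8910 against 544 to 841 CPM. All 6 tested of each list were called lower in KRM. Their part in the levels of *Osm*, *Il17ra* and *Tnfrsf1b* was not tested.

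Against CD11chi macrophages of Sham kidneys 3 of the 9 genes were called, all lower in KRM, where 5.13% of 12380 genes were called and 4.13% were called lower. These were *Il6* (20.5-fold by the means, log2 fold change -4.44, SE 0.739, adjusted p = 0.0197), *Il17ra* (11.2-fold, -3.52, SE 0.528, adjusted p = 0.0144) and *Osm* (2.9-fold, -1.58, SE 0.302, adjusted p = 0.0306). Groups did not overlap for 6 of the 9 genes and for 24.4% of all genes, the other non-overlapping ones being *Il10* (log2 fold change -2.69, adjusted p = 0.1), *Il10ra* (0.88, adjusted p = 0.214) and *Il10rb* (1.15, adjusted p = 0.0784). The size for *Il10* rested on CD11chi Sham replicate 3, at 7.91 CPM against 1.4 and 1.27, and was -1.23 (adjusted p = 0.211) without it. Same-numbered Sham libraries deviated together, and with the replicate number as a block none of the 3 stayed past the threshold: *Il6* was at -5.15 (adjusted p = 0.0858), *Osm* at -1.52 (adjusted p = 0.109) and *Il17ra* at -3.33 (adjusted p = 0.108). Over all alternatives the adjusted p ran from 1.02e-07 to 0.0858 for *Il6*, from 9.62e-05 to 0.121 for *Osm* and from 5.83e-10 to 0.108 for *Il17ra*. The count moved with the share of all genes called in the same fit. It was 0 without KRM Sham replicate 1, 2 or 4 (1.27% to 1.5% of all genes), 1 without KRM Sham replicate 3 (*Il6*, 1.84%) or CD11chi Sham replicate 1 (*Il17ra*, 1.39%), 3 without CD11chi Sham replicate 2 (*Il10rb* in place of *Osm*, 6.95%), and 6 without CD11chi Sham replicate 3 (13.6%), when *Il10ra*, *Il10rb* (both higher in KRM) and *Tnfrsf1b* (lower) were added. Dendritic cell markers (8 of 8 found) summed to 414 to 1890 CPM in CD11chi Sham against 164 to 216 in KRM Sham, with 5 of 8 called lower in KRM, and 4 of 6 tested classical monocyte markers were also called lower. Their part in these differences was not tested.

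Between the monocyte-derived populations of Sham kidneys *Osm* was the 1 gene called, 6.45-fold lower in CD11chi than in CD11clo (log2 fold change -2.63, SE 0.422, adjusted p = 0.0477), where 1.52% of 12105 genes were called and 0.603% were called lower. *Il6* differed by -1.09 (SE 0.261, adjusted p = 0.106) and *Il17ra* by -1.68 (SE 0.572, adjusted p = 0.201), both without overlap of the libraries, as did 5 of the 9 genes and 26.8% of all genes. Leaving out CD11chi Sham replicate 3, with its proximal tubule transcripts, gave 4 calls (5.7% of all genes), and leaving out any other 1 library gave 0 (0%). With replicate 3 removed from both populations 6 genes were called, in a fit that called 15.7% of all genes: *Il6* (-1.21), *Osm* (-2.6), *Tnfrsf1a* (-0.7) and *Il17ra* (-1.29) lower in CD11chi, and *Il10ra* (0.8) and *Il10rb* (1.03) higher. Neutrophil markers summed to 46.9 to 238 CPM in CD11chi Sham against 983 to 2550 in CD11clo Sham, and dendritic cell markers to 414 to 1890 against 77.2 to 198 CPM, and their part was not tested.

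In RAS kidneys 4 of the 9 genes were called between KRM and CD11clo, all lower in KRM. *Il17ra* was 10.6-fold lower in KRM (log2 fold change -3.36, SE 0.492, adjusted p = 0.0178), *Osm* 6.06-fold (-2.55, SE 0.375, adjusted p = 0.018), *Tnfrsf1a* 3.32-fold (-1.7, SE 0.285, adjusted p = 0.0252) and *Tnfrsf1b* 3.19-fold (-1.64, SE 0.32, adjusted p = 0.0326). In this comparison 9.17% of 13179 genes were called and 5.89% were called lower, and libraries did not overlap for the same 4 genes and for 30.6% of all genes. *Il6* (log2 fold change -1.92, adjusted p = 0.172), *Il10ra* (0.09, adjusted p = 0.862) and *Il10rb* (0.25, adjusted p = 0.676) did not pass. The count fell to 0 without KRM RAS replicate 2 or 3 or CD11clo RAS replicate 2 or 4 (0% to 0.686% of all genes), with adjusted p between 0.0575 and 0.137 for these genes, was 3 without CD11clo RAS replicate 1 (*Tnfrsf1b* at an adjusted p of 0.0572, with 4.14% of all genes called), and stayed 4 without KRM RAS replicate 1 (23%). Neutrophil markers (8 of 8 found) summed to 2040 to 3700 CPM in CD11clo RAS against 65 to 126 in KRM RAS, classical monocyte markers (6 of 7) to 2670 to 5850 against 564 to 985 CPM, and distal nephron markers (8 of 8) to 3.81 to 306 against 105 to 4040 CPM. The part of these transcripts in the differences was not tested.

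KRM and CD11chi of RAS kidneys differed in *Il17ra* alone, 3.76-fold lower in KRM (log2 fold change -1.85, SE 0.348, adjusted p = 0.0282), where 9.23% of 13226 genes were called, and 5.07% lower. Libraries did not overlap for *Il17ra* and *Tnfrsf1a* (log2 fold change -0.53, adjusted p = 0.125) and for 26.8% of all genes. The call of *Il17ra* was lost without KRM RAS replicate 2 or 3 or CD11chi RAS replicate 3 or 4 (adjusted p from 0.0867 to 0.143, in fits that called 0.103% to 0.381% of all genes), and *Il10rb* was added, higher in KRM, without CD11chi RAS replicate 1 (17.6%). Dendritic cell markers summed to 190 to 242 CPM in KRM RAS against 1140 to 5490 in CD11chi RAS (4 of 8 called lower), and distal nephron markers to 105 to 4040 against 7.77 to 170 CPM (3 of 8 called higher). Their part was not tested.

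Between CD11chi and CD11clo of RAS kidneys, 2 of the 9 genes and 8.27% of 12305 genes were called, 3.12% as lower, and the same 2 of the 9 and 16.6% of all genes did not overlap. *Osm* was 3.24-fold lower in CD11chi (log2 fold change -1.7, SE 0.373, adjusted p = 0.025) and *Tnfrsf1a* 2.21-fold lower (-1.15, SE 0.246, adjusted p = 0.0234), while *Il17ra* (-1.5, adjusted p = 0.0555) and *Tnfrsf1b* (-1.16, adjusted p = 0.0591) fell just short. The count was 0 without CD11chi RAS replicate 2 or 3 or CD11clo RAS replicate 2 or 4 (2.02% to 4.74% of all genes), 1 without CD11chi RAS replicate 4 (2.15%), 4 without CD11clo RAS replicate 3 (8.13%), and 5 without CD11chi RAS replicate 1 (17.3%). Neutrophil markers summed to 12.4 to 327 CPM in CD11chi RAS against 2040 to 3700 in CD11clo RAS (5 of 6 tested called lower), dendritic cell markers to 1140 to 5490 against 135 to 454 (7 of 8 higher) and T and NK cell markers to 114 to 287 against 12.2 to 44.6 (6 of 7 higher). Whether they had a part in these differences was not tested. The 3 comparisons between populations of 1 treatment share libraries, so their values stand side by side and are not independent of each other.

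The next question was how stenosis changed these genes in each population. In KRM, 3 of the 8 genes that could be tested rose and none fell, where 7.77% of 12852 genes were called higher and 1.94% lower (9.7% in all). *Il6* rose 23.5-fold by the means, from 0.476 ± 0.422 CPM (SD, n = 4) to 11.2 ± 8.82 CPM (SD, n = 3), with a log2 fold change of 4.73 (SE 1.05, adjusted p = 0.0369). *Osm* rose 3.69-fold, from 25 ± 3.28 to 92.2 ± 37.2 CPM (log2 fold change 2.00, SE 0.28, adjusted p = 0.0163), and *Il17ra* 2.94-fold, from 16.1 ± 2.79 to 47.5 ± 14.3 CPM (log2 fold change 1.66, SE 0.216, adjusted p = 0.014). *Il6* reached the minimum count of 10 only in the RAS libraries (12 to 194 counts, against 1 to 8 in Sham). It was thus admitted to the test only through the group in which it was high. *Il10*, at 9 counts in KRM RAS replicate 1, did not reach the minimum in enough libraries to be tested. Its mean was 0.588 ± 0.241 CPM in Sham and 9.1 ± 7.19 CPM in RAS, a ratio of 15.5 or 3.95 on the log2 scale, and without the filter it was at 4.01 (SE 0.843, adjusted p = 0.0302). The IL-10 and TNF receptor genes had lower means in RAS without a call: *Il10ra* by -0.77 on the log2 scale (SE 0.279, adjusted p = 0.103), *Il10rb* by -0.75 (SE 0.247, adjusted p = 0.0829), *Tnfrsf1a* by -0.33 (SE 0.141, adjusted p = 0.14) and *Tnfrsf1b* by -0.41 (SE 0.213, adjusted p = 0.207). *Tnf* was at -0.44 (SE 0.443, adjusted p = 0.499). Among the 8 tested genes the groups did not overlap for 6, and among all genes for 27.6%.

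These calls depended on which KRM libraries were used. KRM RAS replicate 1 carries a further doubt, since its column of deposited log2 values did not match its counts. The count was 0 without KRM Sham replicate 1, 2 or 4 or KRM RAS replicate 2 or 3 (0.204% to 0.338% of all genes), with adjusted p for *Il6*, *Osm* and *Il17ra* between 0.0507 and 0.135, although *Il6* stayed between 4.19 and 5.17, *Osm* between 1.65 and 2.05 and *Il17ra* between 1.59 and 1.76 on the log2 scale. Without KRM Sham replicate 3 the count was 2 (10.6% of all genes), with *Il6* at 4.29 (adjusted p = 0.0505). Without KRM RAS replicate 1, 8 of the 9 genes were called, in a fit that called 50.2% of all genes: *Il6* (5.24, adjusted p = 0.000616), *Il10* (4.61, adjusted p = 0.000102), *Osm* (2.23, adjusted p = 6.58e-05) and *Il17ra* (1.35, adjusted p = 0.000668) were higher, and *Il10ra* (-1.23, adjusted p = 0.000761), *Il10rb* (-1.15, adjusted p = 0.000626), *Tnfrsf1b* (-0.76, adjusted p = 0.00174) and *Tnfrsf1a* (-0.49, adjusted p = 0.012) lower. Over all alternatives the highest adjusted p was 0.135 for *Il6*, 0.102 for *Osm*, 0.0875 for *Il17ra*, 0.283 for *Il10ra*, 0.248 for *Il10rb*, 0.493 for *Tnfrsf1b* and 0.333 for *Tnfrsf1a*. For *Il10* it was 0.0302, but only over the 4 alternatives in which it could be tested. Of the 7 fits without 1 library these held only 1, that without KRM RAS replicate 1, its lowest RAS library. The value for *Il10* is therefore not comparable with the others. All of these 8 genes kept their direction. Transcripts of other cells moved with the treatment in these libraries. Distal nephron markers (8 of 8 found, up to 4 of them at 0 in a Sham library) summed to 6.56 to 181 CPM in KRM Sham and to 105, 4040 and 3000 CPM in RAS replicates 1 to 3, fibroblast markers (6 of 6) to 18.8 to 41.3 against 41.5, 355 and 440 CPM, endothelial markers (8 of 8) to 49.5 to 70.3 against 61.5, 235 and 206 CPM, and T and NK cell markers (8 of 8) to 3.94 to 4.81 against 395, 45 and 43.4 CPM, while macrophage markers summed to 9000 to 11300 in Sham and 4270 to 7520 in RAS. Their part in the levels of *Il6*, *Il10*, *Osm*, *Il17ra* and the IL-10 receptor was not tested.

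**Figure D3:**
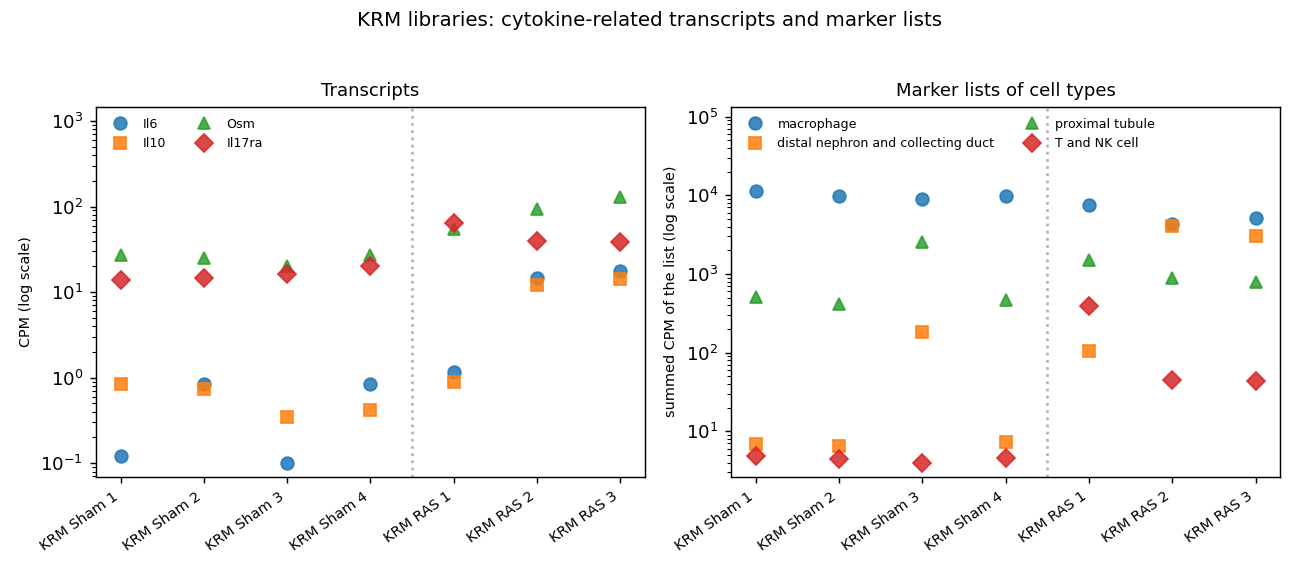
The 7 KRM libraries, with Sham left and RAS right of the dotted line in each panel, and 1 point for each library and gene (left panel, CPM, log scale) or marker list (right panel, summed CPM, log scale). By its counts, RAS replicate 1 has *Il6* at 1.18 and *Il10* at 0.884 CPM, near the Sham libraries, with distal nephron markers at 105 CPM, and RAS replicates 2 and 3 are higher in all of these. The deposited log2 values of RAS replicate 1, 4.45 for *Il6* and 5.38 for *Il10*, do not lie near those of Sham.

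In CD11chi macrophages the edgeR quasi-likelihood test called 0 of 12739 genes between RAS and Sham (0%), with 1247 genes (9.79%) at an unadjusted p under 0.05, and DESeq2 called 189 genes but 0 of these 9. *Il6* went from 9.77 ± 1.1 CPM (SD, n = 3) to 31 ± 16.8 CPM (SD, n = 4), a log2 fold change of 1.56 (SE 0.545, adjusted p = 0.508), with RAS higher in 3 of 4 libraries. *Osm* was at 72.6 ± 33.4 and 173 ± 86.5 CPM (log2 fold change 1.17, SE 0.484, adjusted p = 0.508). *Il10* differed by 0.30 (SE 0.844, adjusted p = 0.913), and by 1.77 (adjusted p = 0.599) without CD11chi Sham replicate 3. The unadjusted p-values of *Il6* and *Osm* were under 0.05 and those of the other 7 genes were not, and the groups overlapped for all 9 genes, against 6.85% of all genes without overlap. T and NK cell markers summed to 5.95 to 33.1 CPM in CD11chi Sham against 114 to 287 in RAS, and fibroblast markers to 18.9 to 24.3 against 30.2 to 306 CPM. Neither list overlapped between the groups, and their part in these values was not tested.

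In CD11clo macrophages 0 of 12301 genes were called by edgeR (0%), with 1102 (8.96%) at an unadjusted p under 0.05, and DESeq2 called 107 genes but 0 of these 9. The 2 genes whose RAS and Sham libraries did not overlap were the IL-10 receptor chains, against 8.41% of all genes. *Il10rb* was at 127 ± 14.8 CPM (SD, n = 3) in Sham and 246 ± 111 CPM (SD, n = 4) in RAS, a log2 fold change of 0.95 (SE 0.327, adjusted p = 0.553), and *Il10ra* at 394 ± 14.1 and 537 ± 106 CPM, a log2 fold change of 0.44 (SE 0.188, adjusted p = 0.554). *Il6* was at 22 ± 3.41 and 43.8 ± 25.2 CPM (log2 fold change 0.97, SE 0.463, adjusted p = 0.566), and the cytokines *Osm* and *Il10* differed by 0.25 and 0.24 on the log2 scale. The small difference of *Il10* rested on CD11clo Sham replicate 3, at 34.9 CPM against 2.9 and 3.94, and was 2.32 (adjusted p = 0.55) without it. T and NK cell markers summed to 0.62 to 7.07 CPM in CD11clo Sham against 12.2 to 44.6 in RAS, and endothelial markers to 40.1 to 68.2 against 74.4 to 307 CPM. What part they had in these values was not tested.

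**Figure D4:**
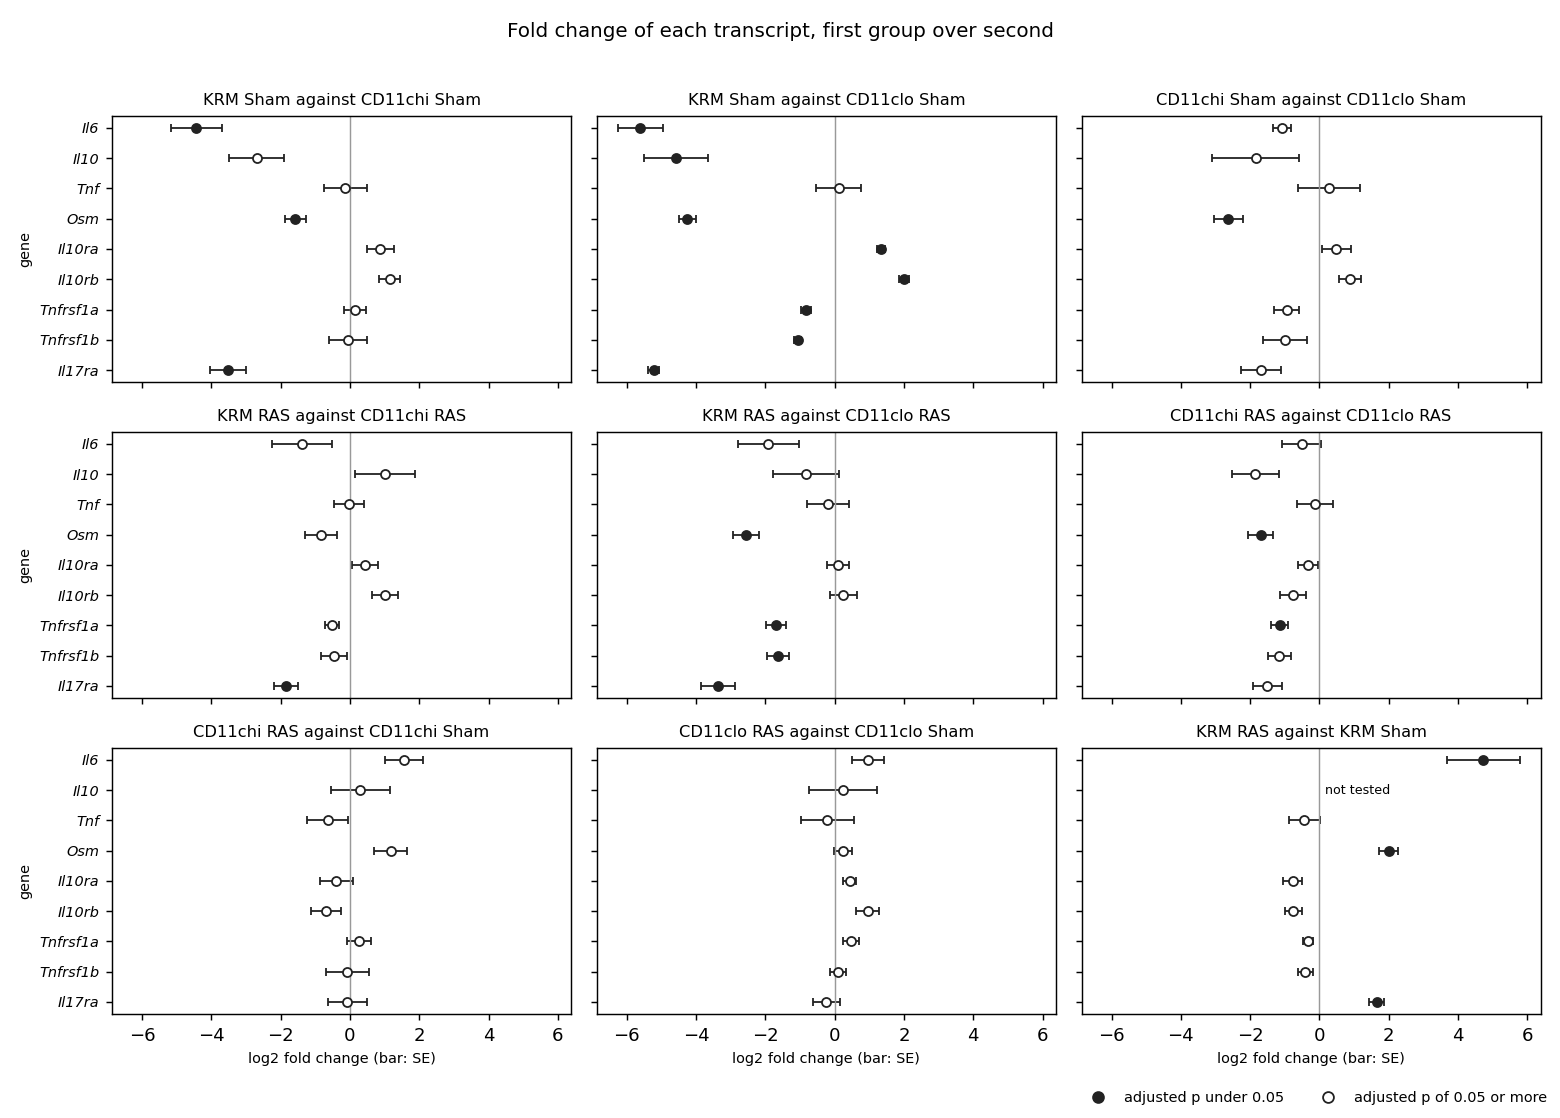
Log2 fold change of each of the 9 genes in the 9 comparisons between groups, with bars of 1 standard error. Filled points passed an adjusted p of 0.05 and open points did not, and *Il10* was not tested in KRM of RAS against Sham. In KRM against CD11clo of Sham kidneys 8 genes are called, and in RAS against Sham only *Il6*, *Osm* and *Il17ra* in KRM are.

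Whether the response to stenosis differed between populations was tested with the interaction term. For KRM against CD11clo no gene of the 9 passed, where 0.245% of 13877 genes did and 3289 (23.7%) had an unadjusted p under 0.05. The difference in log2 fold change was 3.71 for *Il6* (SE 1.13, adjusted p = 0.101), 3.69 for *Il10* (SE 1.39, adjusted p = 0.142), 1.86 for *Il17ra* (SE 0.481, adjusted p = 0.0815) and 1.71 for *Osm* (SE 0.423, adjusted p = 0.0755), all higher in KRM. It was -1.74 for *Il10rb* (SE 0.453, adjusted p = 0.0815) and -1.25 for *Il10ra* (SE 0.361, adjusted p = 0.0917). Without replicate 3 of each Sham population the difference for *Il10* shrank to 1.43 (SE 1.31, adjusted p = 0.608). Without KRM RAS replicate 1, 6 of the 9 genes passed, where 16.1% of genes did, without CD11clo RAS replicate 1, 1 gene passed (1.31%), and DESeq2 on all libraries called 5 (10.2%). For KRM against CD11chi edgeR called 0 of 14137 genes (0%), with 3000 (21.2%) at an unadjusted p under 0.05 and 1225 genes called by DESeq2, 1 of these 9 among them (8.67% of all). *Il6* was at 3.09 (SE 1.18, adjusted p = 0.158) and *Il10* at 3.68 (SE 1.24, adjusted p = 0.127), and these 2 passed without KRM RAS replicate 1, at 3.62 and 4.21, in a fit that called 7.4% of all genes. Without replicate 3 of each Sham population *Il10* was at 2.08 (SE 1.22, adjusted p = 0.6). For CD11chi against CD11clo edgeR called 0 of 13540 genes (0%), with 900 (6.65%) at an unadjusted p under 0.05 and 13 called by DESeq2, 0 of these 9. *Il10rb* was at -1.59 there (SE 0.574, adjusted p = 0.735).

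The receptors and signalling partners of these cytokines were taken from 4 lists of related genes. Of the IL-6 family and gp130 list (21 genes, 16 tested) 4 were higher and 9 lower in KRM than in CD11clo of Sham kidneys, where 19.5% of all genes tested were called higher and 22.4% lower. Their median log2 fold change was -0.43, and that of all genes -0.04. *Clcf1*, a cytokine of the same family, and *Lifr*, the LIF receptor through which oncostatin M can also act, were higher (log2 fold changes 3.14 and 2.6, adjusted p = 4.74e-05 and 0.000105). *Lif* and the IL-27 receptor gene *Il27ra* were lower (-5.63 and -2.67, adjusted p = 0.000523 and 0.00175). *Lifr* stood at 447 ± 46.2 CPM (SD, n = 4) in KRM Sham and 130 ± 79.5 CPM (SD, n = 3) in KRM RAS, where it fell (log2 fold change -1.69, SE 0.358, adjusted p = 0.0335). In that comparison 3 of 15 tested genes of the list were called higher, among them *Il27ra* (3.00, adjusted p = 0.0391) and the feedback inhibitor *Socs1* (1.13, adjusted p = 0.0445), and *Lifr* was the 1 called lower, where 7.77% of all genes were called higher and 1.94% lower. *Osmr*, the specific oncostatin M receptor chain, was listed at 0 to 4.29 CPM in the libraries outside KRM RAS and at 0.0982 to 20.6 CPM in KRM RAS.

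The IL-10 family and response list (16 genes) had 8 tested genes in KRM against CD11clo of Sham kidneys, of which 1 was higher and 4 lower (median log2 fold change -0.68), beside the same 19.5% and 22.4% of all genes. *Maf*, a transcription factor that promotes *Il10* transcription, was higher (1.21, adjusted p = 0.00129), and *Nfil3* and *Il1rn*, the IL-1 receptor antagonist, were lower (-5.52 and -4.87, adjusted p = 1.63e-06 and 8.78e-06). In KRM RAS against Sham 3 of 8 tested genes were called, all higher (7.77% of all genes were), with *Il1rn* at 5.62 (SE 0.858, adjusted p = 0.019) and *Nfil3* at 3.47 (SE 0.604, adjusted p = 0.0248). *Il1rn* went from 1.89 ± 0.336 to 85.7 ± 67.7 CPM. The median of the list was 0.18, against 0.02 for all genes.

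Of the list of TNF relatives and signalling genes (24 genes, 21 tested) 2 were higher and 9 lower in KRM than in CD11clo of Sham kidneys, with a median of -0.28, beside 19.5% of all genes called higher and 22.4% lower. *Traf1*, an adaptor of TNF receptors, was higher (1.74, adjusted p = 0.00129), and *Tnfsf14* and *Tnfaip2* were lower (-3.85 and -3.69, adjusted p = 0.000532 and 1.98e-06). In KRM RAS against Sham 4 of 22 tested genes rose and none fell (7.77% and 1.94% of all genes), among them *Tnfrsf9*, the receptor 4-1BB (4.59, SE 0.584, adjusted p = 0.014), and *Tnfaip2* (1.76, SE 0.42, adjusted p = 0.0422), while *Tnf* itself was not called. Of the IL-17 list (16 genes) 7 were tested in KRM against CD11clo of Sham kidneys, and 4 were lower and 0 higher (22.4% and 19.5% of all genes), including *Cebpb*, a transcription factor downstream of the receptor (-3.56, adjusted p = 6.65e-06). In KRM RAS against Sham 3 of 8 tested genes rose (7.77% of all genes), with *Traf3ip2*, the adaptor of the IL-17 receptor, at 1.44 (SE 0.31, adjusted p = 0.0347). The ligand *Il17a* was at 0.709 CPM or less in every library. Against CD11chi of Sham kidneys, KRM was lower in 1 of 15 tested genes of the IL-6 list, 2 of 8 of the IL-10 list, 2 of 21 of the TNF list and 0 of 7 of the IL-17 list, beside 4.13% of all genes, and higher in none. In RAS against Sham of CD11chi and of CD11clo the edgeR test called no gene of any kind (0%), those of the 4 lists included. DESeq2, which called 189 and 107 genes there, was not examined for the lists. The list genes were not tested again with a library left out, and the marker sums given for the KRM libraries apply to them too.

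Across the 21 libraries, which share populations, treatments and depth differences, the log2 CPM of *Il6* followed that of *Osm* (Pearson r = 0.85) and *Il10* (r = 0.78), and the pairs of receptor chains followed each other (*Il10ra* and *Il10rb*, r = 0.90, *Tnfrsf1a* and *Tnfrsf1b*, r = 0.90). *Il6* ran against both IL-10 receptor chains (r = -0.73 for *Il10ra* and -0.77 for *Il10rb*). Among 8893 genes, those with the pattern most like that of *Il6* were *Fosl2* (r = 0.972), *Emp1* (0.968) and *Flt1* (0.963). The 3 most like *Osm* were *C3* (0.956), *Lass6* (0.952) and *Bambi* (0.951), and the 3 most like *Il10* were *Ccl7* (0.907), *Ier3* (0.894) and *Lmna* (0.884). *Tnf* had no such close companion, the 3 highest being *Hspa5* (0.715), *Irs2* (0.692) and *Ppp1r15a* (0.669). These correlations describe 21 libraries in 6 groups.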

How the data were processed

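Paired-end RNA sequencing libraries of sorted kidney macrophages were made by the authors with a low-input reverse transcription kit and Nextera XT, and aligned with OSA to mm10, with Ensembl gene models. The deposited count table holds unscaled estimated counts, of which 10.4% to 15.3% in a library were not whole. They also deposited a table of log2 values, TPM-scaled and quantile normalised, which was used only for an alternative. In that table the column named for KRM RAS replicate 1 correlated with its counts at 0.1, against 0.89 to 0.96 for the other columns, so alternatives on the log2 table are uncertain for KRM RAS. That column held *Il6* at 4.45 and *Il10* at 5.38. Replicates 2 and 3 held 4.69 and 4.98 for *Il6* and 4.02 and 4.27 for *Il10*, and KRM Sham at most 1.47 and 1.14. Which column is right cannot be told, so the low counts of both genes in KRM RAS replicate 1 are uncertain too. The version of the aligner is not given in the sources used here. Read strand is not stated, so overlapping genes could share reads.

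Counts were rounded and lines with the same symbol summed (37620 lines, 34236 names), and libraries were grouped by their labels. The labels give more RAS libraries of CD11chi and CD11clo than the methods of the study list, and all labelled libraries were used. The main test was edgeR 4.0.16 in R 4.3.3: TMM factors, a minimum count of 10 and minimum total of 15 in filterByExpr, and the two-sided quasi-likelihood F test on only the groups compared. P-values were adjusted by Benjamini-Hochberg over all genes tested, and called means an adjusted p under 0.05. There were 12 comparisons. No KRM Sham library reached the minimum count for *Il6* or *Il10*. In comparisons with that group these genes passed the filter, where they did, only through libraries of other groups. On simulated data with known log2 changes of 2 the main test recovered 85% of changed genes for KRM against CD11clo of Sham kidneys, 77% for KRM of RAS against Sham, and 55.5% for the difference in response of KRM and CD11clo. The changed genes were drawn from well-counted genes only, and libraries were simulated as independent. Recovery at counts as low as those of *Il6* and *Il10* in KRM Sham was not measured. The 9 genes and the lists of related genes and cell markers were chosen with earlier results of these data known. Every one of the 9 was named, and from each list at most 2 called genes in each direction with the largest fold and no overlap. *Osmr* and *Il17a* were named in addition, after their values were seen. For likeness, log2 CPM with a prior count of 2 was used over genes with a mean log2 CPM of at least 3. Positions and exon lengths are those of GRCm38, and promoters those of RefSeq. Figures were drawn with matplotlib 3.10.9.

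Alternatives were RLE size factors, no filter, a single fit of all 6 groups, a block for the replicate number, DESeq2 1.42.0, the log2 table tested with limma 3.58.1, and each library left out. Leaving out replicate 3 of each Sham population was added after seeing the data. Whether replicate numbers pair the libraries was checked from their deviations from the group mean. In Sham kidneys all 9 same-numbered pairs of populations correlated above 0.1 (0.201 to 0.647), highest for replicate 3 (0.542 to 0.647). The same-numbered library was the best correlate in 7 of these 9. Deviations within a group depend on each other, so the shift of replicate 3 bears on the other numbers too. In RAS kidneys 6 of 10 pairs correlated above 0.1 (0.054 to 0.505). The main tests used no pairing, and the replicate block was only an alternative. The labels do not say what a number marks.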

Additional observations from a re-analysis of the deposited data

Results flagged for a closer look

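In CD11chi macrophages of RAS kidneys the *Il10rb* level of replicate 1, 250 CPM, lay far from the other 3 libraries (104, 115 and 114 CPM), its gap to the nearest of them being 0.925 of the whole range of the group. This was the 1 case among 27 groups of 4 libraries that were examined, and chance alone gives about 1 in 20. Without this library the difference of *Il10rb* between KRM and CD11chi in RAS kidneys passed the threshold, at 1.44 on the log2 scale (adjusted p = 0.0212, edgeR quasi-likelihood test, with 0.0212 to 0.62 over all alternatives). That fit called 17.6% of all genes, against 9.23% with the library, so the gain in calls was not particular to *Il10rb*. Replicates 3 and 4, which remain in it, lay close to each other over all genes.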

How the results depend on the processing

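*Il6* and *Osm* kept their direction in every comparison under all alternatives run, and no difference that was called in either fit changed sign. In 97 of the 1663 alternative values of single genes the sign differed from that in the report, with an adjusted p of at least 0.25 in each, and 36 of these were of *Tnf* and 18 of *Tnfrsf1b*. A further 77 lost their call and 63 gained one. Values below are counts of the 9 genes called, with the share of all genes called in the same fit in parentheses, or log2 fold changes of single genes. For KRM against CD11chi (Sham), the count ran from 0 to 6, *Tnf* from -0.49 to 0.97, *Tnfrsf1a* from -0.16 to 0.36 and *Tnfrsf1b* from -0.52 to 0.34 over the fits without 1 library. With the replicate block the count was 0 (0.719%) and *Tnfrsf1b* 0.29, with DESeq2 the count was 5 (14.6%), with limma *Tnf* was 0.31 and *Tnfrsf1b* 0.52 and without replicate 3 of Sham *Tnfrsf1a* was -0.15. For CD11chi against CD11clo (Sham), the count ran from 0 to 4, *Il10* from -3.38 to 0.2 and *Tnf* from -0.77 to 0.87 over the fits without 1 library. Here without the filter the count was 0 (0.483%), with DESeq2 the count was 3 (10%), with limma the count was 0 (0.735%) and without replicate 3 of Sham the count was 6 (15.7%). For KRM against CD11chi (RAS), the count ran from 0 to 2, *Tnf* from -0.29 to 0.25 and *Il10ra* from -0.01 to 0.73 over the fits without 1 library. With the replicate block *Tnf* was 0.06 and with limma the count was 0 (4.08%) and *Tnf* 0.54. For KRM against CD11clo (RAS), the count ran from 0 to 4, *Tnf* from -0.5 to 0.22, *Il10ra* from -0.35 to 0.33 and *Il10rb* from -0.13 to 0.59 over the fits without 1 library. Here with the replicate block *Tnf* was 0.25 and with limma *Il10* was 0.36, *Tnf* 0.54, *Il10ra* -0.27 and *Il10rb* -0.2. For CD11chi against CD11clo (RAS), the count ran from 0 to 5 and *Tnf* from -0.47 to 0.24 over the fits without 1 library. With the replicate block the count was 4 (10.2%) and *Tnf* 0.06, with DESeq2 the count was 5 (16.7%) and with limma *Tnf* was 0. For CD11chi, RAS against Sham, *Il10* ran from -0.29 to 1.77, *Tnf* from -0.99 to 0.45, *Tnfrsf1a* from -0.05 to 0.46, *Tnfrsf1b* from -0.55 to 0.3 and *Il17ra* from -0.51 to 0.46 over the fits without 1 library. Here without the filter *Tnfrsf1b* was 0.01 and *Il17ra* 0.01, with the replicate block *Tnfrsf1b* was 0.2 and *Il17ra* 0.17, with limma *Tnfrsf1b* was 0.11 and *Il17ra* 0.06 and without replicate 3 of Sham *Tnfrsf1a* was -0.05. For CD11clo, RAS against Sham, *Il10* ran from -0.43 to 2.32, *Tnf* from -0.71 to 0.36, *Tnfrsf1b* from -0.01 to 0.26 and *Il17ra* from -0.55 to 0.02 over the fits without 1 library. With the replicate block *Tnfrsf1b* was -0.01. For KRM, RAS against Sham, the count ran from 0 to 8 over the fits without 1 library. Here with the replicate block the count was 0 (0.327%), with DESeq2 the count was 5 (24.6%) and with limma the count was 7 (18.5%). For the difference in response of KRM and CD11clo, the count ran from 0 to 6 and *Tnf* from -0.98 to 0.16 over the fits without 1 library. With the replicate block *Tnf* was 0.14, with DESeq2 the count was 5 (10.2%) and with limma the count was 5 (10.4%). For the difference in response of KRM and CD11chi, the count ran from 0 to 2, *Tnf* from -0.97 to 0.5, *Il10rb* from -0.5 to 0.3 and *Tnfrsf1b* from -0.77 to 0.08 over the fits without 1 library. Here in 1 fit over all 6 groups *Tnf* was 0, with DESeq2 the count was 1 (8.67%) and without replicate 3 of Sham *Il10rb* was 0.11 and *Tnfrsf1b* 0.09. For the difference in response of CD11chi and CD11clo, *Il10* ran from -1.91 to 1.46, *Tnf* from -0.98 to 0.72, *Tnfrsf1a* from -0.56 to 0.05, *Tnfrsf1b* from -0.68 to 0.24 and *Il17ra* from -0.29 to 0.76 over the fits without 1 library. With the replicate block *Il10* was -0.04, *Tnf* 0.04 and *Tnfrsf1b* 0.16, with limma *Tnfrsf1b* was 0.05 and without replicate 3 of Sham *Il10* was -0.51 and *Il17ra* -0.21. For KRM against CD11clo (Sham), *Tnf* ran from -0.37 to 0.77 over the fits without 1 library. The causes of these changes were not tested. Where a group had 3 libraries, the fit without 1 of them rests on 2. The replicate block bears on Sham kidneys, where same-numbered libraries deviated together, and it ended the 3 calls of KRM against CD11chi there. Elsewhere the libraries share only a number, and in RAS kidneys the same-numbered library was the best correlate in 6 of 10 pairs. *Il10* in KRM of RAS against Sham could be tested only without the filter, in 1 fit over all 6 groups, with limma and without KRM RAS replicate 1, at 4.01, 3.96, 3.72 and 4.61. At the depth of these libraries the levels of *Il6* and *Il10* in KRM Sham rest on at most 8 counts a library.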
